A study of Mus musculus with 2 samples.

Results

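Conventional αβ T cells of mouse dorsal skin, the lymphocytes whose antigen receptor pairs an alpha with a beta chain, made up 553 of 19578 cells in single-cell RNA-seq libraries from control skin and from skin with MC903-induced inflammation. They were selected on UMIs (unique molecular identifiers, each standing for 1 captured RNA molecule). A cell had 200 to 6000 detected genes and at most 10% mitochondrial UMIs. It had at least 1 UMI of the CD3 chains Cd3e, Cd3d and Cd3g together, at least 2 UMIs of the receptor constant regions Trac, Trbc1 and Trbc2 together, and no UMI of Trdc (the delta chain), Foxp3 (regulatory T cells), Pdgfra (fibroblasts) or C1qa (macrophages). The rule kept 311 of 11399 cells in the Ctrl library, 2.73% (exact Clopper-Pearson 95% interval 2.44% to 3.04%), and 242 of 8179 in the MC903 library, 2.96% (2.60% to 3.35%). These intervals overlapped.

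The mice were female C57BL/6J animals aged 7 weeks whose back hair had been removed before treatment. The Ctrl library came from skin painted with the ethanol vehicle (0 nmol of MC903), and the MC903 library from skin painted daily with 4.5 nmol of MC903 (calcipotriol, a vitamin D analogue used to induce a disease resembling atopic dermatitis), both taken at day 10. How many animals entered a library is not given in the sources used here. Each group was 1 library, so no difference between Ctrl and MC903 could be tested against replicate spread, and all intervals below cover counting error only.

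T cells read peptide antigens through the receptor and the CD3 signalling chains. CD4 T cells are helper cells: the type 2 program, driven by the factor Gata3, makes Il4 and Il13, the cytokines that lead in atopic dermatitis, whereas the type 1 program, driven by Tbx21, makes Ifng. CD8 T cells kill through granule proteins. T cells that circulate through lymph nodes carry Ccr7 and S1pr1, and those that settle in skin carry Itgae, Itga1 and Cxcr6. The study asked how signals between dermal fibroblasts and T cells, among them ligands of the chemokine receptors Cxcr3 and Ccr2 and cytokines acting through JAK kinases, shape this inflammation, and the T cell side of the MC903 comparison is given here.

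The T cells held 1394172 UMIs in Ctrl and 1817830 in MC903. A T cell had a median of 3110 UMIs and 1499 genes in Ctrl and of 6598 UMIs and 2221.5 genes in MC903, whereas all kept cells had medians of 7813 and 6330 UMIs. The MC903 T cells thus held more UMIs each, which raises the chance that a cell shows a UMI of a gene. Whether this came from sampling, from the RNA content of the cells or from the cells selected was not tested. Levels are therefore given as CPM (UMIs of a gene summed over the T cells, per 1000000 of all their UMIs). Several shares over all T cells are also given after each cell had been thinned to 1000 UMIs, which left out 1 Ctrl cell. Shares of a gene within Cd4, Cd8 or neither cells are from all UMIs, so the difference in depth is part of them. At the edge of the rule, 49 Ctrl and 17 MC903 T cells had exactly 2 constant region UMIs, and 52 and 23 cells that met all other criteria were left out with 1. Likewise 51 and 21 T cells had 1 CD3 UMI, and 456 and 75 cells were left out for having none. The largest exclusion by a barred gene was for Trdc, with 165 cells in Ctrl and 61 in MC903.

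The label was checked on genes the rule did not use. No cell in either library had UMIs of both Cd4 and Cd8a or Cd8b1, and 45.3% of Ctrl and 34.7% of MC903 cells had neither. Gamma chain constant UMIs, which mark γδ T cells, were in 31 Ctrl cells (9.97%) and 31 MC903 cells (12.8%). Among cells with neither coreceptor they were in 20.6% and 29.8%, so these held most of them. B cell markers summed to 4.30 CPM in Ctrl and 3.30 CPM in MC903, with Ms4a1 at 0 in both. Genes of regulatory T cells other than Foxp3 were present: 90 Ctrl and 97 MC903 cells had UMIs of at least 2 of Il2ra, Ikzf2 and Ctla4.

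RNA of other skin cells differed between the libraries. The 7 keratinocyte markers summed to 4674 CPM in Ctrl, with all 7 detected and Krt10 the most abundant at 2738 CPM, and to 123 CPM in MC903, with Krt14 the most abundant at 42.4 CPM. Of the Ctrl sum, 88.9% lay in 5 cells. The 8 fibroblast markers summed to 2376 CPM and 114 CPM, with 7 of 8 detected in each library, Col1a2 (583 CPM) and Dcn (75.4 CPM) the most abundant, and Pdgfra at 0 by the rule. The 9 macrophage markers summed to 1224 CPM and 179 CPM, mostly Apoe (992 CPM and 142 CPM), with 6 and 7 detected and Adgre1 at 0 in both, and the 7 dendritic cell markers to 257 CPM and 16.0 CPM. In the other direction, the 5 mast cell and basophil markers summed to 5.74 CPM in Ctrl and 238 CPM in MC903, of which 95.8% lay in 1 cell. The keratinocyte, fibroblast and macrophage lists together passed 1% of UMIs in 11 Ctrl T cells and 1 MC903 T cell. Each comparison was therefore repeated on the other 300 Ctrl and 241 MC903 cells, called the low-foreign cells below. The part of this RNA in results on all T cells was otherwise not tested.

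In Ctrl or in MC903, 1909 genes reached 100 CPM, the selection genes that did so among them. Of these, 50 (2.62%) were at least 2-fold higher in MC903 and 173 (9.06%) at least 2-fold lower. In the low-foreign cells, 37 of 1908 genes (1.94%) were higher and 136 (7.13%) lower. A gene could reach the minimum only in the library in which it was high, so counts and medians of list members past it, given below, describe those members and are no support for a list. The 20 lowest ratios in all T cells belonged to genes of the cornifying epidermis such as Krt77, Krt10, Krt1, Flg and Spink5, to the collagens Col1a1, Col1a2 and Col3a1, and to the lipid genes Scd1 and Fa2h. Krt10 alone went from a log2 ratio (MC903 over Ctrl, 1 CPM added to each) of -8.85 in all T cells to -3.81 in the low-foreign cells. In the low-foreign cells the lowest 20 still held collagens and Scd1, and among them were Xcl1 and Ly6c2, genes that T cells express. The skew toward lower genes depended on scaling. Ribosomal protein genes made up 193252 CPM in Ctrl and 311521 CPM in MC903, and the median log2 ratio of all genes past the minimum was -0.19. Scaled without ribosomal and mitochondrial genes, the median was 0.07 and the split 144 higher to 165 lower. With the median ratio set to 0 it was 88 to 130.

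**Figure D1:**
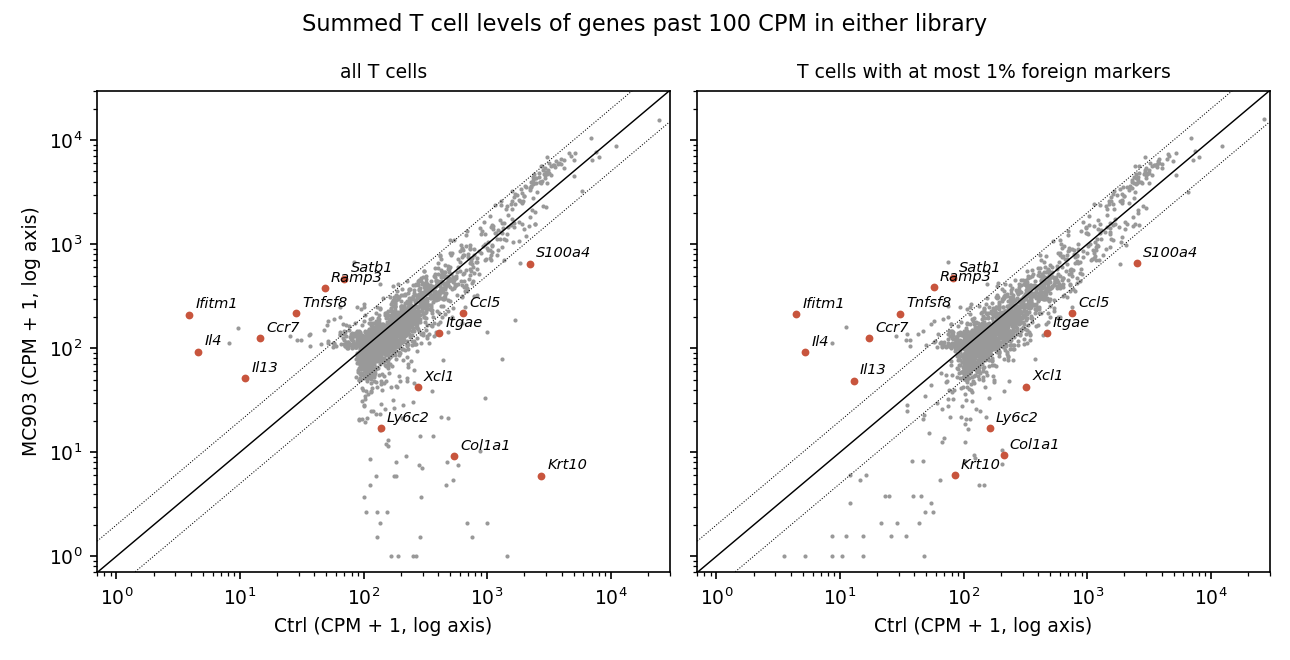
Level of each gene past 100 CPM in the T cells of Ctrl (x axis) and MC903 (y axis), as CPM plus 1 on log axes, in all T cells (left) and in the low-foreign cells (right); the solid line marks equal levels, the dotted lines 2-fold, and red points are named genes, with Il4 and Il13 shown although they were under the minimum. Krt10 moved from 2738 CPM in Ctrl toward the other genes when the 11 Ctrl cells with RNA of other skin cells were left out, whereas Satb1, Ccr7 and Ifitm1 kept their places above the 2-fold line.

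Coreceptor use differed. The Cd4 class was 69 of 311 cells in Ctrl, 22.2% (17.7% to 27.2%), and 108 of 242 in MC903, 44.6% (38.3% to 51.1%). Cd8a or Cd8b1 UMIs were found in 101 Ctrl cells, 32.5% (27.3% to 38.0%), and in 50 MC903 cells, 20.7% (15.7% to 26.3%). Neither was found in 141 Ctrl (45.3%) and 84 MC903 cells (34.7%). The intervals of the libraries did not overlap for Cd4 or for Cd8, but these shares are from unequal depths. The directions were the same at equal depth. Thinned to 1000 UMIs, Cd4 shares were 8.71% (27 of 310 cells) and 15.7% (38 of 242). Thinned Cd8 shares were 21.0% (65 cells) and 9.09% (22 cells). Whether intervals were apart at equal depth is not given here. In Pdgfra-positive cells without CD3 UMIs, which should lack coreceptors, Cd4 UMIs were in 0.264% of Ctrl and 0.295% of MC903 cells at median depths of 9072.5 and 6919 UMIs. As levels, Cd4 was at 75.3 CPM in Ctrl and 162 CPM in MC903, a log2 ratio of 1.10, which was 0.87 in the low-foreign cells and 0.38 as the mean of each cell's own CPM. Cd8a, the CD8 alpha chain, was at 198 CPM and 47.3 CPM (-2.04), and Cd8b1, the beta chain, at 127 CPM and 76.5 CPM (-0.72). Because the rule sees RNA only, fewer CD8 cells and less CD8 RNA per cell cannot be told apart in the neither class. Below, Cd4 cells, Cd8 cells and neither cells are these classes.

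**Figure D2:**
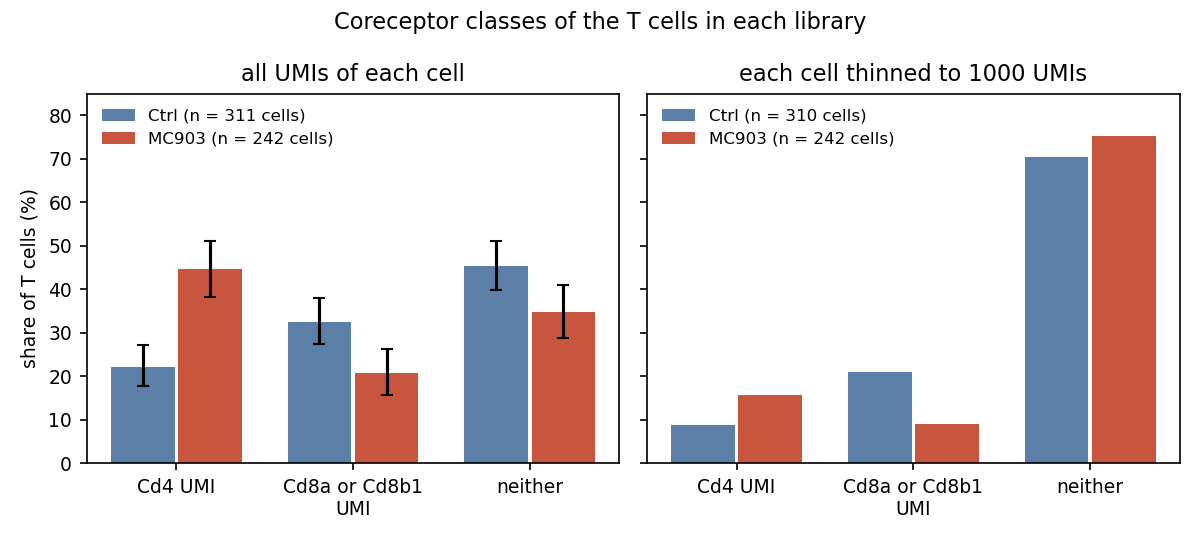
Share of T cells (%) with a Cd4 UMI, with a Cd8a or Cd8b1 UMI or with neither, in Ctrl (blue) and MC903 (red), from all UMIs of a cell (left, bars with exact Clopper-Pearson 95% intervals of counting error) and with each cell thinned to 1000 UMIs (right). The Cd4 share was 22.2% in Ctrl and 44.6% in MC903 and the Cd8 share 32.5% and 20.7%; thinning lowered all 4 values and kept both directions.

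The type 2 cytokines Il4 and Il13 were far higher in MC903. Il4, which drives IgE switching and Th2 differentiation, had 5 UMIs in 3 Ctrl T cells and 167 UMIs in 64 MC903 T cells, or 3.59 CPM and 91.9 CPM, a log2 ratio of 4.34 (interval 3.43 to 6.32). Il13, which acts on keratinocytes and fibroblasts, had 14 UMIs in 7 Ctrl cells and 92 UMIs in 33 MC903 cells, or 10.0 CPM and 50.6 CPM, a ratio of 2.22 (1.51 to 3.26). Both stayed under the minimum of 100 CPM, so they are in none of the counts above. A UMI of Il4 was in 0.965% of Ctrl and 26.4% of MC903 T cells. Thinned, Il4 was seen in no Ctrl cell and in 5.37% of MC903 cells. The background share in Pdgfra-positive cells of MC903 was 0.354%. No cell dominated: the highest Il4 cell held 32 UMIs, 35 of the 64 held 1, and without the highest cell the MC903 level was 74.3 CPM.

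Most Il4 lay in the Cd4 class. Among Ctrl Cd4 cells, whose median depth was 2874 UMIs against 7727 in MC903, 0 of 69 had it (0% to 5.21%). It was in 50 of 108 MC903 Cd4 cells, 46.3% (36.7% to 56.2%). The level in Cd4 cells was 135 CPM in MC903, at least 10.6-fold higher than the 3 UMIs that a count of 0 in Ctrl allows. Among Cd8 cells Il4 was in 1 of 101 Ctrl cells and 0 of 50 MC903 cells, and among neither cells in 2 of 141 and 14 of 84. Il13 was in 1 of 69 and 26 of 108 Cd4 cells, in 1 of 101 and 1 of 50 Cd8 cells, and in 5 of 141 and 6 of 84 neither cells. In neither cells it was at 9.52 CPM and 10.3 CPM without the highest cell of each library, unlike Il4. Of the 33 MC903 cells with Il13, 25 also had Il4. T cells held 15.6% of all 1072 Il4 UMIs of kept MC903 cells, so most lay outside the cells selected here.

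The 150 bases before the RefSeq starts of these cytokine genes and of Ifng are shown because the type 2 pair was higher and Ifng lower in MC903. They are from GRCm38.p6, 5′ to 3′ on the gene's strand. Il4 and Il13 are neighbours on chromosome 11. Capitals mark GGAAAA or its reverse complement TTTTCC, the core bound by NFAT, the factor that calcium switches on below the T cell receptor. The Il4 stretch is chr11:53618666-53618815 on the minus strand, of 2 Il4 starts listed, the Il13 stretch chr11:53634703-53634852 on the minus strand, and the Ifng stretch chr10:118440896-118441045 on the plus strand.
Il4: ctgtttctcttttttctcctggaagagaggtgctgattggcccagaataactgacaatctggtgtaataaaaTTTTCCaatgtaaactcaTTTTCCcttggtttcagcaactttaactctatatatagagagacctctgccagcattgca
Il13: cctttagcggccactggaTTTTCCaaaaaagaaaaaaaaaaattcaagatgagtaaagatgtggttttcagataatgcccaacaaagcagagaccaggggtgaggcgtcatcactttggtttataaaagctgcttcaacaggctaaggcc
Ifng: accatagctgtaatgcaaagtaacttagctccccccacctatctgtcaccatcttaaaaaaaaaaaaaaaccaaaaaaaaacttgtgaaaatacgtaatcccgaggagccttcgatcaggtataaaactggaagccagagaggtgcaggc
The Il4 stretch held 2 matches on either strand, Il13 held 1 and Ifng 0, and the other Il4 start held 0. Of all 32851 stretches of 150 bases in the table, 11.8% held at least 1 match and 1.01% at least 2. A match is a description of letters and not a site.

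As a list, type 2 genes differed less. Of 16 listed, 5 passed the minimum, 1 at least 2-fold higher and 1 lower, with a median log2 ratio of 0.37 beside -0.19 for all genes, of which 2.62% were higher and 9.06% lower. Over all 16, whatever their level, 5 were higher and 2 lower, with a median of 0.27. The 1 higher past the minimum was Crlf2, the receptor subunit for TSLP, a keratinocyte cytokine induced by MC903, at 50.9 CPM in Ctrl and 116 CPM in MC903 (1.17). It was higher in every class, at 46.9 CPM and 128 CPM in Cd4 cells, 54.8 CPM and 126 CPM in Cd8 cells, and 49.2 CPM and 82.1 CPM in neither cells. Thinned, the ratio was 0.54, under 2-fold. Gata3, the type 2 master factor, was at 279 CPM and 361 CPM (0.37), and in Cd8 cells at 200.3 CPM and 183 CPM. Ccr4, a skin-homing receptor of type 2 cells, was at 35.9 CPM and 83.1 CPM. Among Cd4 cells its share was 15.9% and 56.5% while its level was 81.0 CPM and 120.2 CPM, an interval of the ratio of -0.14 to 1.35. Il1rl1, the IL-33 receptor, was at 68.9 CPM and 77.0 CPM. Il5, Il9 and Il31 had at most 2 UMIs in either library. The lower member past the minimum was Areg, an epidermal growth factor family ligand, at 159.95 CPM and 57.2 CPM (-1.47), and 54.8% of its MC903 UMIs lay in 1 cell. Under a stricter T cell rule, with 182 Ctrl and 198 MC903 cells, its ratio was -0.18.

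Within the MC903 Cd4 class, the 50 cells with Il4 and the 58 without are compared as a description, since Il4 chose them and the first were deeper (medians 9172.5 and 6192 UMIs). Il13 was in 19 of 50 and 7 of 58, at 100.4 CPM and 38.3 CPM. Gata3 was at 552 CPM and 333 CPM and Il2ra, the high-affinity IL-2 receptor chain, at 219 CPM and 142 CPM. Lower in the cells with Il4 were Ikzf2 at 20.5 CPM and 299.5 CPM, Ccr7 at 53.9 CPM and 191 CPM, and Rora at 547 CPM and 1047 CPM. Crlf2 and Ccr4 were alike in level, with intervals of the log2 ratio of -0.67 to 0.39 and -0.77 to 0.32. The highest ratios there were mast cell genes (Cma1, Cpa3, Tpsb2 and Mcpt4), each found in 1 of the 50 cells. Hdc, also a mast cell gene, was spread over more cells. It was in 13 of 50 and 3 of 58, at 158 CPM and 6.76 CPM, with 25.9% of its UMIs in 1 cell.

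**Figure D3:**
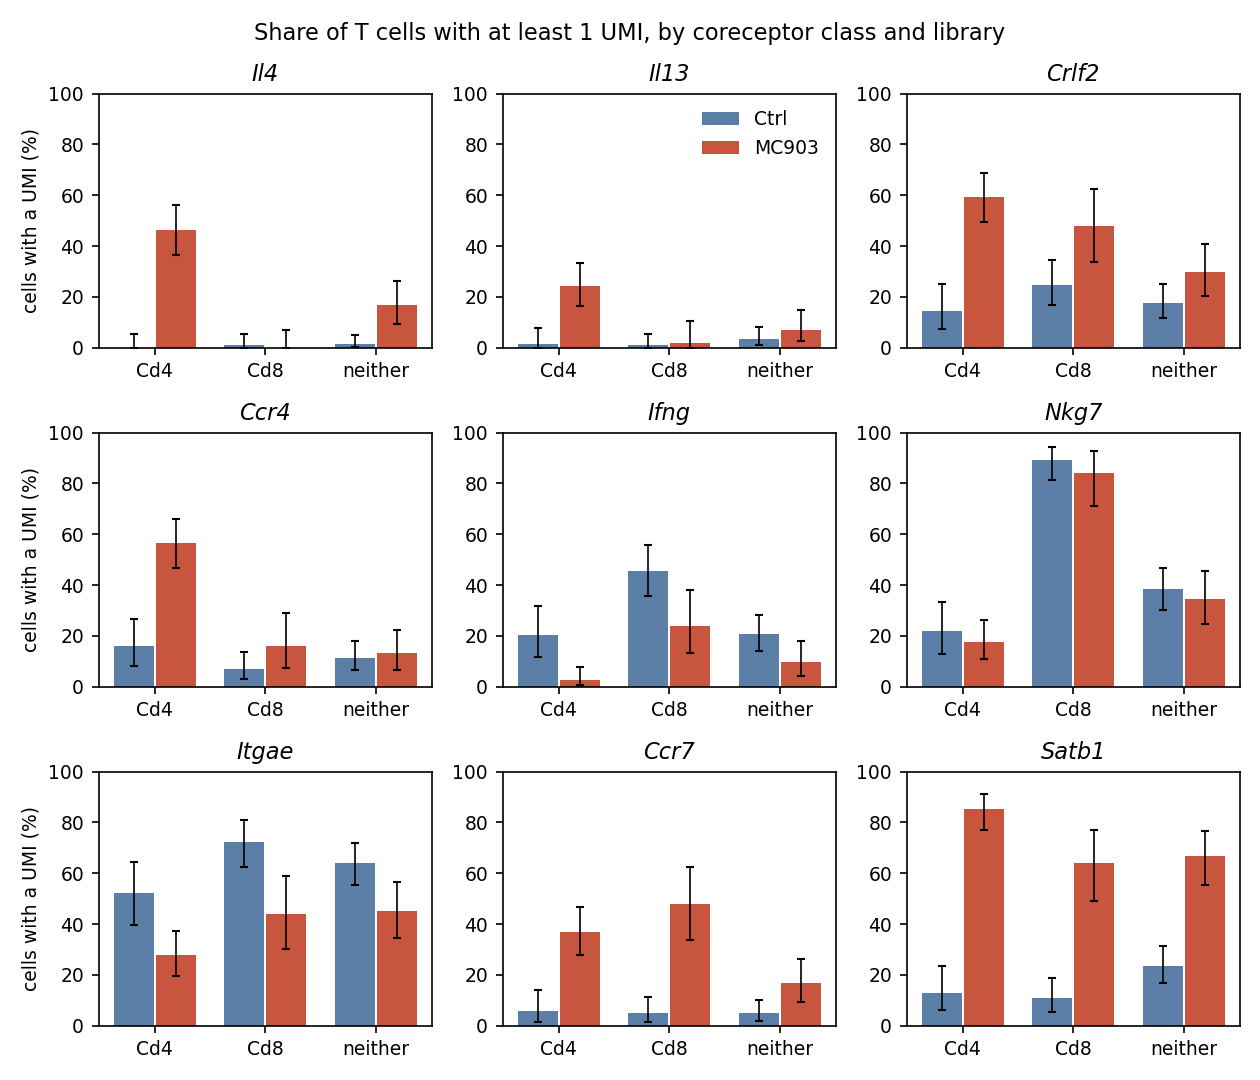
Share of T cells (%) with at least 1 UMI of 9 genes in the Cd4, Cd8 and neither classes, in Ctrl (blue) and MC903 (red), with exact Clopper-Pearson 95% intervals of counting error. Shares were not thinned, and median depths in Ctrl and MC903 were 2874 and 7727 UMIs in Cd4 cells, 3521 and 6343 in Cd8 cells, and 3008 and 5234 in neither cells. Il4 and Il13 stood in the MC903 Cd4 cells (46.3% and 24.1%), Ifng was highest in Ctrl Cd8 cells (45.5%), and Satb1 was higher in MC903 in all 3 classes.

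Ifng and several cytotoxic genes were lower in MC903. Ifng, the type 1 cytokine that induces Cxcl9 and Cxcl10 in target cells, was at 194 CPM in Ctrl and 85.3 CPM in MC903, a log2 ratio of -1.17 (-1.48 to -0.89), and 63.2% of its MC903 UMIs lay in 1 Cd4 cell with 98 UMIs, without which the level was 31.4 CPM. It was in 89 Ctrl cells (28.6%) and 23 MC903 cells (9.50%). Its share was lower in each class: 20.3% and 2.78% of Cd4 cells, 45.5% and 24.0% of Cd8 cells, and 20.6% and 9.52% of neither cells. Thinned shares over all T cells were 11.9% and 2.89%. In MC903, 2 of the 64 Il4 cells had an Ifng UMI. Of 12 type 1 genes, 3 passed the minimum, 0 higher and 1 lower, beside 2.62% of all genes higher and 9.06% lower. The 1 past 2-fold was Ifng. It was under 2-fold after thinning (-0.87), as the mean of each cell's own CPM (-0.93), scaled without ribosomal and mitochondrial genes (-0.95) and with the median ratio set to 0 (-0.98). The 3 had a median of -0.22 that was positive in 4 of 17 alternatives, by up to 0.65 in Cd8 cells alone, and over all 12 listed 5 were at least 2-fold lower, 0 higher, with a median of -0.33. Below the minimum, Tbx21 was at 54.5 CPM and 20.9 CPM, and Cxcr3, the receptor for Cxcl9 and Cxcl10, at 30.1 CPM and 14.3 CPM. Il18r1, an IL-18 receptor chain, was at 155 CPM and 209.6 CPM.

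Of 15 cytotoxic genes, 8 passed the minimum, all 8 of them already in Ctrl, 0 higher and 5 lower, with a median of -1.40 beside 9.06% of all genes lower and a median of -0.19. Over all 15 listed, whatever their level, 6 were at least 2-fold lower and the median was -0.94. Markers of NK and NKT cells differed alongside: the 8 listed, all detected in both libraries, summed to 279 CPM in Ctrl and 139 CPM in MC903. Fcer1g was the most abundant at 123 CPM and 57.2 CPM. Whatever their level, 5 of the 8 NK and NKT markers were at least 2-fold lower and 1 was higher. The defining marker Ncr1 was at 2.15 CPM and 0.550 CPM. Their part in the cytotoxic values was not tested. In the low-foreign cells 6 of 8 cytotoxic genes past the minimum were lower, with a median of -1.57. The 5 cytotoxic genes lower in all T cells included the chemokine Ccl5 at 641 CPM and 216 CPM (-1.57) and the granule protein Nkg7 at 521 CPM and 194 CPM (-1.42). The others were the protease Ctsw at 292 CPM and 111 CPM (-1.39), the granzyme Gzmc at 370.1 CPM and 130.4 CPM (-1.50), and Xcl1, a ligand for cross-presenting dendritic cells, at 274.0 CPM and 41.3 CPM (-2.70). In MC903, 1 cell held 131 of the 237 Gzmc UMIs and 1 held 33 of the 75 Xcl1 UMIs. Single classes differed: in Cd8 cells alone Ccl5 was at 1060.1 CPM and 957 CPM (-0.15), Nkg7 at 907 CPM and 533 CPM (-0.77), and Xcl1 at 102 CPM and 71.7 CPM (-0.50). In Cd4 cells alone, Ccl5 was at 422 CPM and 11.2 CPM (-5.11) and Nkg7 at 273 CPM and 67.2 CPM, with 33 of the 64 Nkg7 UMIs of Ctrl in 1 cell. Gzmc lay mostly in neither cells, at 781 CPM and 486 CPM, and was in 7 Ctrl and 0 MC903 Cd8 cells. With the classes given equal weights in both libraries, Ccl5 was at -0.94, Nkg7 at -0.86, Gzmc at -0.75 and Ctsw at -0.68, so 4 of the 5 were under 2-fold. Gzmb, the main granzyme of activated killers, was at 147 CPM and 156 CPM over all T cells. In Cd8 cells it was at 278 CPM and 43.0 CPM, and in neither cells at 46.0 CPM and 199 CPM. Single cells held much of it: without the highest cell of each library these levels were 123 CPM and 34.4 CPM, and 31.7 CPM and 133 CPM. In Cd4 cells, where 1 MC903 cell held 76 of 172 UMIs, it was at 89.5 CPM and 97.8 CPM without the highest cells.

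Several genes of naive and central memory T cells were higher. Of 10 listed, 5 passed the minimum, 3 higher and 0 lower, with a median of 1.80 (1.65 in the low-foreign cells) beside 2.62% of all genes higher and a median of -0.19. The 3 higher reached the minimum only in MC903, where they were high, and the 2 that reached it in Ctrl too were under 2-fold. Over all 10, whatever their level, 6 were at least 2-fold higher, 0 lower, and the median was 1.75. Satb1, a chromatin organiser of T cell development, was at 68.9 CPM and 466 CPM (2.74, interval 2.45 to 3.08), in 53 of 311 Ctrl and 180 of 242 MC903 cells. Thinned shares were 5.81% and 36.8%, beside 1.26% and 1.95% in Pdgfra-positive cells. Satb1 was higher in Cd4 cells (59.7 CPM and 492 CPM), in Cd8 cells (26.5 CPM and 381 CPM) and in neither cells (108 CPM and 476 CPM). Ccr7, the receptor that leads cells into lymph vessels and nodes, was at 13.6 CPM and 124 CPM (3.09), and in 4 of 69 and 40 of 108 Cd4 cells and 5 of 101 and 24 of 50 Cd8 cells. Bcl2, which blocks cell death, was at 50.9 CPM and 180.4 CPM (1.80). Il7r, the IL-7 receptor, was at 293 CPM and 477 CPM (0.70), with the wider gap in Cd8 cells at 60.5 CPM and 398 CPM. Tcf7 was at 123 CPM and 173 CPM (0.48).

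Below the minimum, S1pr1, which lets cells leave tissue, was at 19.4 CPM and 71.0 CPM, and Lef1 at 26.5 CPM and 88.6 CPM. These genes overlapped with the type 2 cytokines in part: of the 64 MC903 cells with Il4, 60 had a Satb1 UMI and 19 a Ccr7 UMI, while 180 and 78 of all 242 cells had them.

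Il4, Il13, Satb1 and Ccr7 were also more than 2-fold higher without the cells that carried regulatory or γδ genes. Without cells that had at least 2 of Il2ra, Ikzf2 and Ctla4, which left 221 Ctrl and 145 MC903 cells, the log2 ratios were 4.13 for Il4, 2.53 for Il13, 2.94 for Satb1, 3.18 for Ccr7 and -0.77 for Ifng, the last under 2-fold. Without cells with a gamma chain UMI, which left 280 and 211, they were 4.35, 2.94, 3.22, 3.11 and -1.16.

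Genes of skin residency differed by member. Of 12 listed, 8 passed the minimum, 0 higher and 3 lower, beside 9.06% of all genes lower, with a median of -0.39. Over all 12, 5 were lower and the median was -0.52. Itgae (CD103), the integrin that holds T cells to E-cadherin, was at 408 CPM and 138 CPM (-1.56, interval -1.78 to -1.35), and its share was lower in all 3 classes: 52.2% and 27.8%, 72.3% and 44.0%, and 63.8% and 45.2% of Cd4, Cd8 and neither cells. Cd44, an adhesion receptor of antigen-experienced cells, was at 483 CPM and 226 CPM (-1.09). Cxcr6 was at 147 CPM and 67.7 CPM (-1.11), with -2.53 in Cd4 cells and -0.07 in neither cells. Cd44 and Cxcr6 were under 2-fold scaled without ribosomal and mitochondrial genes (-0.87 and -0.88) and with the median ratio set to 0 (-0.90 and -0.92). Cd69, which holds cells in tissue by opposing S1pr1, was at 705 CPM and 754 CPM (0.10). Rgs1 was at 886 CPM and 1252 CPM (0.50).

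Among genes past the minimum, the highest ratios included genes of other kinds. Ifitm1, an interferon-inducible membrane protein that restricts viruses, had 4 UMIs in 2 Ctrl cells and 380 UMIs in 43 MC903 cells, or 2.87 CPM and 209 CPM (5.76, interval 4.82 to 8.07). Its neighbour Ifitm2 was at 83.2 CPM and 679 CPM (3.01). Fibroblasts carry both genes: in Pdgfra-positive cells thinned shares of Ifitm2 were 41.5% and 48.3% and of Ifitm1 5.05% and 11.6%. In T cells the thinned shares were 5.16% and 30.2% for Ifitm2 and 0.645% and 4.96% for Ifitm1, so in MC903 neither exceeded that of Pdgfra-positive cells. Free RNA of these genes as a part of the difference was not tested.

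Plaur, the urokinase receptor, was at 8.61 CPM and 157 CPM (4.04), in 3.22% and 43.8% of cells. Thinned shares were 0.645% and 16.5% in T cells and 1.95% and 2.98% in Pdgfra-positive cells. Ramp3, a subunit of adrenomedullin and CGRP receptors, was at 47.3 CPM and 380 CPM (2.98), with thinned shares of 4.52% and 29.8% in T cells and 0.248% and 0.122% in Pdgfra-positive cells. Tnfsf8, the CD30 ligand, was at 27.3 CPM and 215 CPM (2.94). In Cd4 cells it was at 8.52 CPM and 309 CPM, in 1 of 69 and 76 of 108 cells. Sv2c, a synaptic vesicle glycoprotein, was at 7.17 CPM and 111 CPM (3.77). Hilpda and Ddit4, both induced by low oxygen, had ratios of 2.36 and 1.89. Of 9 Gimap genes, GTPases that support lymphocyte survival, 4 passed the minimum. All 4 were at least 2-fold higher (3 of 4 in the low-foreign cells), beside 2.62% of all genes. Gimap3 reached the minimum only in MC903, where it was high, so this count is no support for the list. All 9 summed to 321 CPM in Ctrl and 824 CPM in MC903. Gimap3 was at 49.5 CPM and 167 CPM (1.73), but under 2-fold after thinning (0.72).

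Activation genes differed by member. Of 14 costimulation genes, 8 passed the minimum, 2 higher and 0 lower, beside 2.62% of all genes higher and 9.06% lower. The median was 0.64, and -0.23 in Cd4 cells alone. Among the 8, 2 reached the minimum only in MC903, and 1 of the other 6 was higher. Over all 14, whatever their level, 2 were higher, 0 lower, and the median was 0.36. Tnfrsf4 (OX40) was at 136 CPM and 409.8 CPM (1.59), but in Cd4 cells, where it was most abundant, at 388 CPM and 620.3 CPM (0.68). Tnfsf11 (RANKL) was at 28.0 CPM and 118 CPM (2.03). Pdcd1 (PD-1) was at 35.1 CPM and 134 CPM (1.90), with ratios of 2.05, 2.14 and 2.22 in Cd4, Cd8 and neither cells. Of 7 follicular helper genes, 4 passed the minimum and 3 were higher, beside 2.62% of all genes. The 3 were Tnfsf8, Pdcd1 and Slamf6 at 1.14, each of which reached the minimum only in MC903. Over all 7, whatever their level, 3 were higher, 0 lower, and the median was 0.90. Slamf6 was under 2-fold in the low-foreign cells (0.97), in Cd4 cells alone (0.67) and after thinning (0.48). By contrast, Cxcr5 and Il21, which define those cells, had at most 4 UMIs in either library. Icos was at 629 CPM and 892 CPM (0.50).

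Of 20 genes listed as chemokine receptors, among them the oxysterol receptor Gpr183, 5 passed the minimum, 3 higher and 2 lower. Of all genes, 2.62% were higher and 9.06% lower. The 3 higher receptors reached the minimum only in MC903. Over all 20, whatever their level, 6 were at least 2-fold higher and 8 lower. Beside Ccr7, the higher were Gpr183, which senses oxysterols in lymphoid tissue, at 63.1 CPM and 249 CPM (1.96), and Cxcr4 at 68.1 CPM and 145 CPM (1.08). Cxcr4 was under 2-fold in the low-foreign cells (0.88), in Cd4 cells alone (0.15) and after thinning (0.23). Beside Cxcr6, the lower was Ccr2, the receptor for Ccl2, at 121 CPM and 47.9 CPM (-1.32). Of 12 type 17 genes, 2 passed the minimum and neither was past 2-fold, with a median of 0.30. But over all 12 listed, whatever their level, 5 were at least 2-fold lower and 0 higher, with a median of -0.51. Of all genes past the minimum, 9.06% were lower. Il17a was at 58.8 CPM and 86.4 CPM, from 11 Ctrl and 8 MC903 cells, and at 27.3 CPM and 50.6 CPM without the highest cell of each. Ccr6, the type 17 homing receptor, was in 34 Ctrl and 7 MC903 cells, at a ratio of -2.46.

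Of 17 JAK, STAT and SOCS genes, 7 passed the minimum and none was past 2-fold, with a median of 0.28. In the low-foreign cells, by contrast, 1 of 8 was lower, beside 7.13% of all genes. Jak1, the kinase shared by the IL-4, IL-13 and interferon receptors, was at 379 CPM and 327 CPM (-0.21), and that sign turned under scaling without ribosomal and mitochondrial genes (0.02). The feedback inhibitors Cish and Socs1, induced by cytokine signals, were higher by less than 2-fold: Cish was at 191 CPM and 310.3 CPM (0.70) and Socs1 at 58.8 CPM and 103 CPM (0.80). Of 19 interferon response genes, 6 passed the minimum and 1 was lower, Ly6c2 at 136 CPM and 16.0 CPM (-3.02), beside 9.06% of all genes. In the low-foreign cells 3 of 8 were lower, beside 7.13% of all genes. Over all 19, whatever their level, 4 were at least 2-fold lower and 1 higher. Of 11 MHC class I genes, 7 passed and 1 was lower, beside 9.06% of all genes. It was the non-classical H2-Q7 at 432 CPM and 199 CPM (-1.11, and -0.47 in Cd8 cells alone). H2-Q7 was under 2-fold scaled without ribosomal and mitochondrial genes (-0.88) and with the median ratio set to 0 (-0.92).

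T cell receptor signalling genes were near the median of all genes. Of 19, 16 passed the minimum, 0 higher and 1 lower, beside 9.06% of all genes lower, with a median of -0.08. Lck, the kinase that starts the receptor signal, was at 148 CPM and 128 CPM. The lower member was Thy1, a surface glycoprotein of mouse T cells, at 521 CPM and 197 CPM (-1.40), with -1.32 in Cd4 and -1.14 in Cd8 cells.

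**Figure D4:**
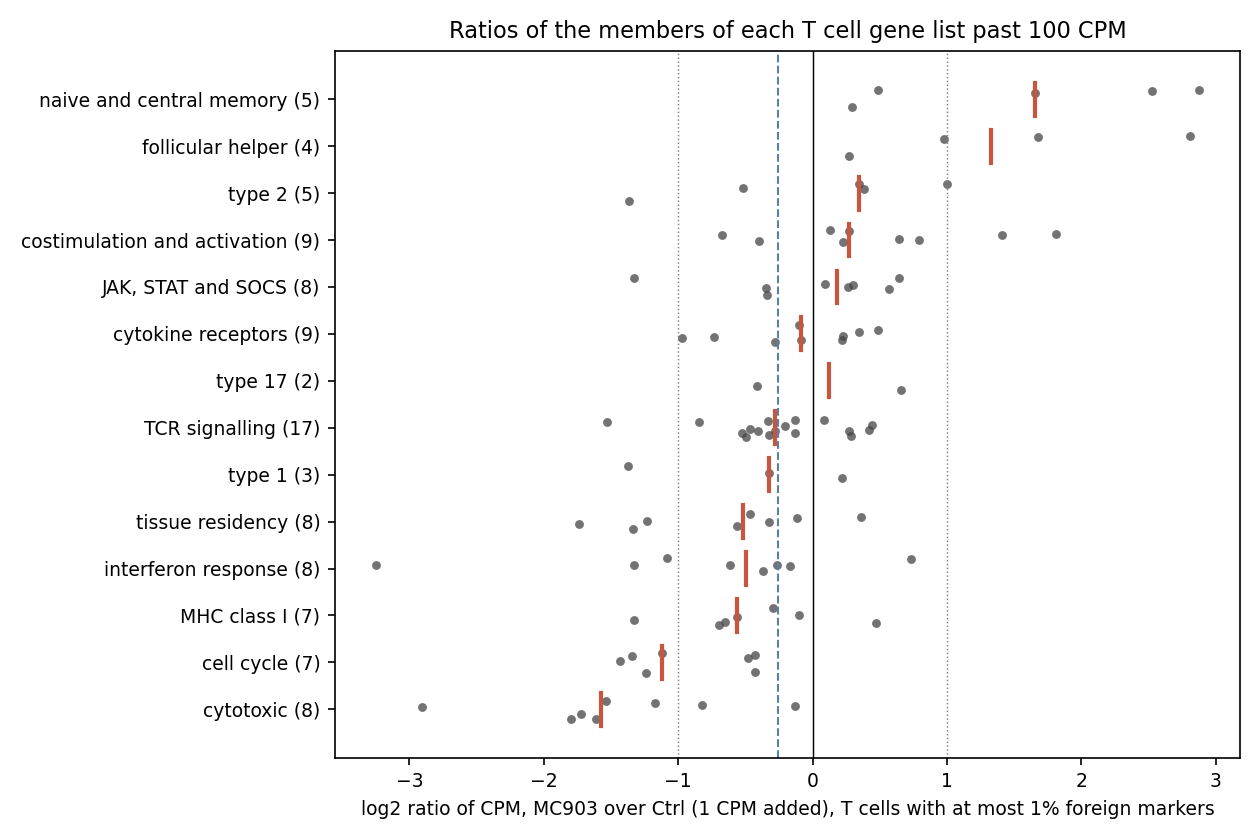
Log2 ratio of CPM, MC903 over Ctrl (1 CPM added), of each member past 100 CPM of 14 T cell gene lists in the low-foreign cells; each point is a gene, red bars are list medians, the number of genes is in parentheses, dotted lines mark 2-fold and the dashed blue line the median of all genes (-0.26). Naive and central memory genes lay highest (median 1.65) and cytotoxic genes lowest (-1.57).

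Genes of division and of stress had medians below that of all genes. Of 18 cell cycle genes, 7 passed the minimum and 3 were lower (Mki67, Stmn1 and Tuba1b), beside 9.06% of all genes, with a median of -0.91. Over all 18, 4 were lower and the median was -0.50. Scaled without ribosomal and mitochondrial genes, the 3 were at -0.996, -0.94 and -0.91, under 2-fold. Mki67 was at 415 CPM and 177 CPM (-1.22), with thinned shares of 12.9% and 8.26% of cells. It was at 748 CPM and 132 CPM in Cd8 cells, 503 CPM and 228 CPM in Cd4 cells, and 103 CPM and 107 CPM in neither cells. Of 10 heat shock genes, all 10 passed and 3 were lower (2 in the low-foreign cells), beside 9.06% of all genes, with a median of -0.76. Dnajb1, 1 of the 3, was at -1.10. It was under 2-fold scaled without ribosomal and mitochondrial genes (-0.87) and as the mean of each cell's own CPM (-0.53). Hspa1a and Hspa1b, chaperones induced by stress, were at -1.77 and -1.87, and at -1.25 and -1.44 in the low-foreign cells, with Hspa1b at -0.98 after thinning. Of 16 S100 and cytoskeleton genes 3 were lower, beside 9.06% of all genes. In the low-foreign cells 4 of 15 were lower and 1 higher. Among the 3 was S100a4, a calcium-binding protein of memory T cells, at 2215 CPM and 648 CPM (-1.77). Ikzf2 (Helios), a regulatory T cell factor, was at 657 CPM and 248 CPM (-1.40), from 1218 CPM and 147 CPM in Cd4 cells, 153 CPM and 218 CPM in Cd8 cells, and 871 CPM and 474 CPM in neither cells. Cyp24a1, the vitamin D-degrading enzyme and a vitamin D target gene, was at 0 in Ctrl and had 47 UMIs in 7 MC903 cells, 41 of them in 1 cell, and was at 3.34 CPM in the low-foreign cells.

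The other T cells of the same libraries are given beside these, with no test of the difference. T cells with Foxp3 numbered 66 in Ctrl and 40 in MC903, and those with Trdc 214 and 94. Satb1 was higher in MC903 in both, at 7.40 CPM and 224 CPM in Foxp3 cells and 85.4 CPM and 270.45 CPM in Trdc cells, as it was in the αβ T cells. Il4 was in 0 and 1 Foxp3 cells and in 1 and 2 Trdc cells, against 3 and 64 αβ T cells. Il13 was in 19 (8.88%) and 9 (9.57%) Trdc cells, a share that was alike in the libraries. Itgae was lower in both, with ratios of -1.41 and -0.66. For Ccr7 the ratios were 2.21 in Foxp3 cells and 1.04 in Trdc cells, the latter with an interval of -0.09 to 2.27. For Ccl5 they were -1.46 and -3.57, the latter from 5 Ctrl and 2 MC903 cells. Ifng had 0 and 2 UMIs in Foxp3 cells and 28 and 0 UMIs in Trdc cells. Plaur was at 16.4 CPM and 233 CPM in Trdc cells and in 0 and 1 Foxp3 cells. Bcl2, higher in αβ T cells, was at 231 CPM and 256 CPM in Trdc cells.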

How the data were processed

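Single-cell RNA-seq was performed on dissociated dorsal skin with 10x 3′ libraries, 1 per group. The authors aligned the reads to mm10 and deposited raw UMI counts per gene and barcode with no normalization. The submitters' processing notes name Cell Ranger 3.1.0 and Seurat 5.0, whereas the matrix headers name Cell Ranger 5.0.0. Of 12598 Ctrl and 8778 MC903 barcodes, 11399 and 8179 passed the filters on genes and mitochondrial UMIs, and 35 barcode sequences occurred in both libraries, none among the T cells.

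Counts of the selected cells were summed per library and scaled to CPM over 33904 genes. Log2 ratios were taken on CPM plus 1, so ratios of low genes are understated, with exact binomial 95% intervals for the ratio, exact Poisson intervals for sums and Clopper-Pearson intervals for shares. UMIs share cells, so all cover counting error only. A count of 0 was read against a floor of 3 UMIs. Genes were counted as higher or lower past 2-fold at a minimum of 100 CPM in either library. Named genes were members of gene lists grouped by role, and the 20 highest and 20 lowest ratios outside the selection genes. The members of the T cell set and all lists were chosen with earlier results of these data known. Doublets were not removed: Scrublet (scanpy 1.11.5) called 395 cells (3.47%) in Ctrl, 6 of them T cells, and 0 in MC903, where it did not work. Alternatives were other cell filters, scalings, thinning, pseudocounts and minimums. The ratio code was tested on simulated data. Python 3.11.15, numpy 2.4.6, scipy 1.17.1 and pandas 2.3.3 were used. Promoter sequences are from RefSeq (GRCm38.p6), and all 3 genes looked up were found.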

Additional observations from a re-analysis of the deposited data

How the results depend on the processing

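No paired analysis was possible because each group was 1 library, and for the same reason no replicate could be left out. The 50 genes at least 2-fold higher numbered 92 in Cd4 cells alone, 95 in Cd8 cells alone, 144 scaled without ribosomal and mitochondrial genes, 88 with the median ratio set to 0, and 94 and 23 at minimums of 50 and 200 CPM. The 173 lower genes numbered 329 in Cd4 cells alone, and 378 and 88 at those minimums. Of the 50 higher genes, 36 were past 2-fold in the low-foreign cells, 35 in Cd4 cells alone, 36 in Cd8 cells alone and 35 after thinning. Of the 173 lower genes these numbers were 142, 108, 129 and 130. Leaving out the cell rich in mast cell markers as well, an alternative chosen after seeing the data, gave 37 higher and 137 lower genes. The Cd4 share was 8.71% in Ctrl and 15.7% in MC903 after thinning, the Cd8 share 21.0% and 9.09%, and the Ctrl Cd8 share 45.1% under a stricter T cell rule. Only 161 of the named genes were followed for their sign across the alternatives. Ccr4, Il1rl1, Tbx21, Cxcr3, S1pr1, Lef1, Ccr6, Ikzf2, Cyp24a1 and Krt10 were among those not followed. Of the 161 followed, 61 had the other sign in at least 1 alternative, and 3 of these were past 2-fold in all T cells. They were Jun in Cd4 cells alone (0.21), Atf3 after thinning (0.089) and Il4 in Cd8 cells alone (-2.74). The Il4 value was from 3 UMIs in 1 Ctrl cell and 0 in MC903. The causes were not tested. Of 23 list medians, 13 had the same sign in all 17 alternatives, that of CD4 and CD8 lineage genes (-0.72) was 0 in Cd4 and in Cd8 cells alone, and 9 had the other sign in at least 1: CD3 and TCR chains, T cell receptor signalling, type 1, type 17, costimulation, inhibitory receptors, cytokine receptors, immediate early genes and glycolysis. Depth limits the low genes: a count of 0 allows 2.15 CPM in Ctrl and 1.65 CPM in MC903.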
